A study of Mus musculus with 4 samples.

Results

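Transcript levels of Trp53, the gene for the tumor suppressor p53, and of 9 genes that p53 is known to activate (Mdm2, Ccng1, Sesn1, Sesn2, Trp53inp1, Gadd45a, Bbc3, Bax and Phlda3) were read from 4 whole-genome arrays of mouse embryonic fibroblasts (MEFs), connective tissue cells grown from embryos. The genes were chosen by name, as all probes outside the array controls that carry one of these 10 symbols. This gave 17 of 41174 probes and 10 of 27745 gene names. Of the 10 genes, 4 were read by 1 probe, 5 by 2 probes and 1 by 3 probes. Where a gene had several probes, the brightest one represents it and the others are given beside it.

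The fibroblasts came from C57BL/6J mice and carried the label Lats2-/- (here KO) or wild type (here WT). The Lats2 protein is a Hippo pathway kinase and takes part in the restraint of growth in crowded cells. Low density cultures were sampled subconfluent after 48 h, and high density cultures after 3 to 5 days. On each 2-colour array the RNA of both densities of 1 genotype was hybridised together, and a second array of each genotype carried the same pair with the dyes exchanged. The 2 arrays of a genotype are therefore a dye swap of 1 pair of cultures, not 2 biological replicates. Each culture was thus a single replicate, and neither a density effect within 1 label, nor a difference between labels, nor the difference between both density effects could be tested. The 2 values given for each gene show technical error only. How many embryos or clones stood behind each culture, and their passage, is not given in the sources used here. Both WT arrays lay on 1 slide and the KO arrays on other slides with other scan times, so slide and scan cannot be told apart from genotype.

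p53 is a transcription factor that is held at low protein levels by the ubiquitin ligase Mdm2, itself a p53 target, and that accumulates after DNA damage, oncogene activity or nutrient stress. Its targets arrest the cell cycle, repair DNA, limit reactive oxygen and mTOR signalling, or start apoptosis at the mitochondrion. In cultured MEFs the pathway is known as the main barrier to unlimited growth, and it is commonly lost when such cultures immortalise. LATS2 is known to bind Mdm2 and to favour p53 accumulation. Transcript levels do not measure p53 protein, which is regulated mostly after translation.

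p53 binds DNA as a tetramer over a pair of adjacent half-sites of 10 bases. The RefSeq promoter table (GRCm38.p6, 250 bases before to 50 bases after each annotated start) held 12 windows for 9 of the 10 genes, and Trp53inp1 was not matched. The p53 half-site consensus, which as a pattern reads the same on both strands, was found in 6 of these 9 genes (Gadd45a, Bax, Sesn1, Mdm2, Ccng1 and Trp53), against 9.55% of the 27025 genes in the table. By window it was in 6 of 12, against 2745 of 32851 windows (8.36%). In Sesn1 it lay in 1 of 2 windows. The windows of Sesn2, Bbc3 and Phlda3 held no match. The stretches of 4 of the 6 genes with a match are shown 5′ to 3′ in the direction of the gene, with the half-site in capitals.
Ccng1, chr11:40755426-40755507, minus strand: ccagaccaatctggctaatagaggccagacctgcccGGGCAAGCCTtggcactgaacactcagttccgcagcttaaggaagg
Mdm2, chr10:117710899-117710980, minus strand: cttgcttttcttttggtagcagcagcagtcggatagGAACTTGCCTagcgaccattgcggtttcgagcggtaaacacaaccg
Sesn1, chr10:41887230-41887311, plus strand: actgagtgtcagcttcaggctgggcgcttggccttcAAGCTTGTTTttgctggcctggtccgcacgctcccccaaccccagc
Gadd45a, chr6:67037408-67037483, minus strand: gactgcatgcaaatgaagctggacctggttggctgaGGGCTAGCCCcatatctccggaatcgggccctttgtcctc
The half-site began 185 bases before the start in Ccng1, 186 in Mdm2, 173 in Sesn1 and 40 in Gadd45a. The best neighbouring stretch, allowing 0 to 13 bases between both half-sites, departed from the consensus at 1 position in Ccng1 and in Bax, at 2 in Gadd45a and Sesn1, at 3 in Trp53 and at 4 in Mdm2. These matches describe the letters in the window and not occupancy by p53, which was not measured. A window without a match shows only that the letters are not in it.

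In a single channel, 52.8% to 67.7% of the 43379 features passed the software's background test. All 17 probes of the 10 genes passed it in all 8 channels and none was saturated. Of 10 fibroblast markers, 9 to 10 (Col1a1, Vim, Pdgfrb and others) were above background in each culture. Their KO minus WT differences ranged from -1.30 (Fn1) to 4.46 (Pdgfra) at low density and from -1.36 (S100a4) to 3.10 (Pdgfra) at high density. Of 8 macrophage markers 3 to 4 were above background in each culture, with Emr1, Ptprc and Itgam above it in none. Lyz2 differed between KO and WT by 1.63 at low and 2.82 at high density and Cd14 by -1.80 and -1.59. Of 8 endothelial markers 0 to 1 were above background, with Pecam1 and Cdh5 in no culture. The part of such cells in the results was not tested. The Lats2 signal went against the knockout label at 3 of 4 probes. At low density, 3 of 4 Lats2 probes were brighter in the culture labelled KO (log2 differences of 1.38, 1.39 and 1.19) and the other one was dimmer (-0.63). At high density the same 3 probes gave 1.49, 1.34 and 0.91 and the other one -1.26. Which exons were deleted is not given in the sources used here, so a probe outside the deletion would check nothing. KO and WT below are the labels.

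To describe the response of the pathway to crowding, the high density culture was compared with the low density culture within each label. In the cultures labelled WT, 4 of the 10 genes were at least 2-fold higher at high density with the same sign on both arrays (Trp53inp1, Sesn1, Bbc3 and Sesn2), and none was 2-fold lower. Over all 14880 genes measured, 9.42% were higher and 6.09% lower by the same rule. The median log2 density effect of the 10 genes was 0.80, against 0.06 for all genes. In the cultures labelled KO, 3 of 10 were 2-fold higher (Trp53inp1, Sesn1 and Gadd45a) and 1 was lower (Ccng1), against 7.16% and 3.87% of 15442 genes. Their median was 0.25, against 0.06 for all genes. As RNA came from whole cultures, fewer cells of a type and less RNA per cell cannot be told apart.

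**Figure D1:**
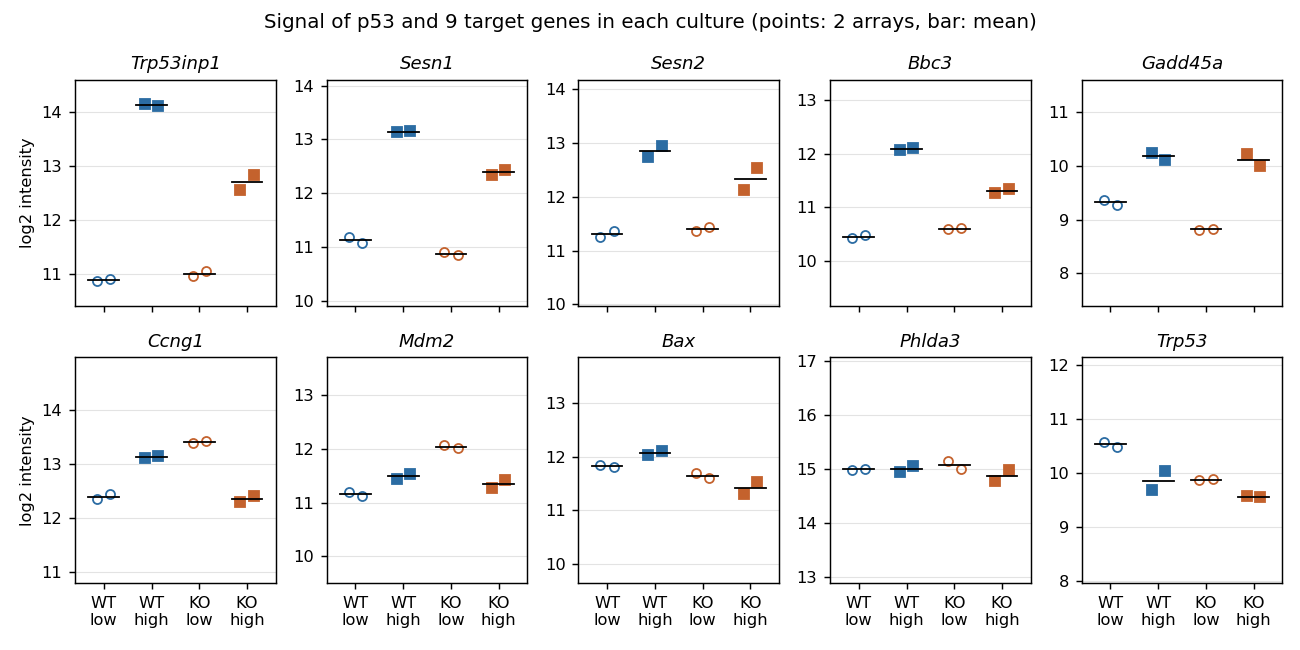
Signal of the brightest probe of each gene (y axis, log2 intensity, every panel spanning the same width of scale around its own middle) in the 4 cultures (x axis). The points are the 2 dye-swap arrays and the bar their mean. Trp53inp1, Sesn1, Sesn2 and Bbc3 stood higher in the WT high density culture than in every other, whereas Ccng1 and Mdm2 stood highest in the KO low density culture.

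Trp53inp1 encodes a stress-induced nuclear protein that promotes p53-dependent arrest and apoptosis and takes part in autophagy. Its probe lies at chr4:11101174-11101233 (build mm8, plus strand). In the WT pair it read 10.85 and 10.90 (log2 intensity on both arrays) at low density and 14.15 and 14.11 at high density. In the KO pair it read 10.95 and 11.05 at low and 12.56 and 12.84 at high density. By this probe both low density cultures thus stood close together, and the high density values did not overlap between labels. The log2 density effect was 3.30 and 3.21 on the WT arrays (9.54-fold) and 1.61 and 1.79 on the KO arrays (3.25-fold). The dimmer second probe gave 2.72 and 2.29 in WT, but 1.69 and 0.08 in KO, so that its KO arrays disagreed. At low density this second probe read 8.15 and 8.35 in WT and 9.06 and 9.63 in KO, which were further apart. Its high density readings were 10.87 and 10.64 in WT and 10.74 and 9.71 in KO, and these overlapped.

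The sestrins restrain mTORC1 signalling and support antioxidant defence, and both read higher at high density on all 4 arrays. Sesn1 (probe at chr10:41596609-41596668, mm8, plus strand) read 11.19 and 11.08 in the WT low, 13.14 and 13.15 in the WT high, 10.90 and 10.84 in the KO low and 12.34 and 12.43 in the KO high density culture. Its effect was 1.95 and 2.07 in WT (4.03-fold) and 1.45 and 1.59 in KO (2.86-fold). The other Sesn1 probes moved the same way on every array, at 1.82 and 1.42 and at 1.01 and 0.39 in WT, and at 0.98 and 1.21 and at 0.44 and 0.45 in KO. Sesn2 (probe at chr4:131764135-131764194, mm8, minus strand) read 11.26 and 11.36 in the WT low, 12.74 and 12.95 in the WT high, 11.37 and 11.44 in the KO low and 12.13 and 12.53 in the KO high density culture. Its effect was 1.48 and 1.59 in WT (2.91-fold) and 0.76 and 1.08 in KO, where the mean of 0.92 was under the 2-fold rule. Its second probe was lower in size, with 0.72 and 0.76 in WT and 0.54 and 0.61 in KO. Sesn3, the third sestrin and better known as a FoxO target, was also past the 2-fold rule, at 2.89 in WT and 2.65 in KO.

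Bbc3 encodes Puma, a BH3-only protein that triggers mitochondrial apoptosis. Its probe (chr7:15476576-15476635, mm8, plus strand) read 10.42 and 10.49 in the WT low, 12.07 and 12.11 in the WT high, 10.59 and 10.61 in the KO low and 11.26 and 11.34 in the KO high density culture. The effect was 1.64 and 1.62 in WT (3.09-fold) and 0.67 and 0.73 in KO (1.63-fold), with no overlap between the arrays of both labels. Bax, the apoptotic effector at the outer mitochondrial membrane, moved little by comparison. Its probe (chr7:45334141-45334296, mm8, minus strand, spotted 10 times per array) read 11.83 and 11.80 in the WT low, 12.03 and 12.10 in the WT high, 11.70 and 11.59 in the KO low and 11.31 and 11.52 in the KO high density culture. Its effect was 0.20 and 0.31 in WT and -0.39 and -0.07 in KO.

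Gadd45a acts in DNA repair, demethylation and stress kinase signalling. Among the 9 target genes it was the only one whose log2 density effect was more positive under the KO label. Its probe (chr6:66964960-66965019, mm8, minus strand) read 9.36 and 9.28 in the WT low, 10.25 and 10.11 in the WT high, 8.81 and 8.84 in the KO low and 10.21 and 10.00 in the KO high density culture. The effect was 0.89 and 0.83 in WT (1.82-fold) and 1.4 and 1.17 in KO (2.44-fold). Both high density cultures were at similar levels, and the low density culture labelled KO was the lowest of the 4. The Gadd45a promoter stretch shown above carries its half-site nearest to the start among the 4 printed. Whether this position bears on the density effect was not tested. The relatives of Gadd45a behaved otherwise, as Gadd45b gave -1.46 and Gadd45g -2.08 in WT, and -0.17 and -0.59 in KO.

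Ccng1 encodes cyclin G1, which recruits a phosphatase to Mdm2, and it differed most between labels. Its probe (chr11:40592348-40592407, mm8, minus strand) read 12.35 and 12.44 in the WT low, 13.11 and 13.16 in the WT high, 13.39 and 13.43 in the KO low and 12.29 and 12.41 in the KO high density culture. The WT effect was 0.76 and 0.72 (1.67-fold higher at high density) and the KO effect was -1.10 and -1.01 (2.08-fold lower). The direction was thus opposite under the 2 labels on all 4 arrays. The second Ccng1 probe showed the same reversal, at 0.44 and 0.22 in WT and at -1.79 and -2.22 in KO. Its homolog Ccng2 gave 0.91 in WT and 1.07 in KO.

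Mdm2, the negative regulator of p53, resembled Ccng1 in part. Its brightest probe (chr10:117092215-117092274, mm8, minus strand) read 11.19 and 11.13 in the WT low, 11.45 and 11.53 in the WT high, 12.07 and 12.01 in the KO low and 11.27 and 11.43 in the KO high density culture. The effect was 0.26 and 0.41 in WT and -0.80 and -0.58 in KO. The second Mdm2 probe, spotted 10 times per array, was near 0 in WT (0.00 and -0.13) and gave -0.70 and -0.97 in KO. Both probes thus placed the KO effect below 0, and the opposite sign in WT rested on the brightest one alone.

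Phlda3, a PH-domain protein that competes with Akt for membrane lipids, had the smallest mean density effect of the 10 genes under both labels. Its probe (chr1:137585476-137585535, mm8, plus strand) read from 14.77 to 15.14 over all 8 channels. The effects of -0.04 and 0.06 in WT and of -0.37 and -0.02 in KO were within or close to the gap between arrays. Trp53 itself read lower at high density on all 4 arrays by its brightest probe. This probe (chr11:69405827-69405886, mm8, plus strand) gave 10.59 and 10.48 in the WT low, 9.68 and 10.03 in the WT high, 9.87 and 9.88 in the KO low and 9.57 and 9.56 in the KO high density culture. The effect was -0.91 and -0.45 in WT and -0.30 and -0.33 in KO, in each case under 2-fold. The second, dimmer Trp53 probe lay within 0.11 of 0 on all 4 arrays, so the probes of this gene disagreed.

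**Figure D2:**
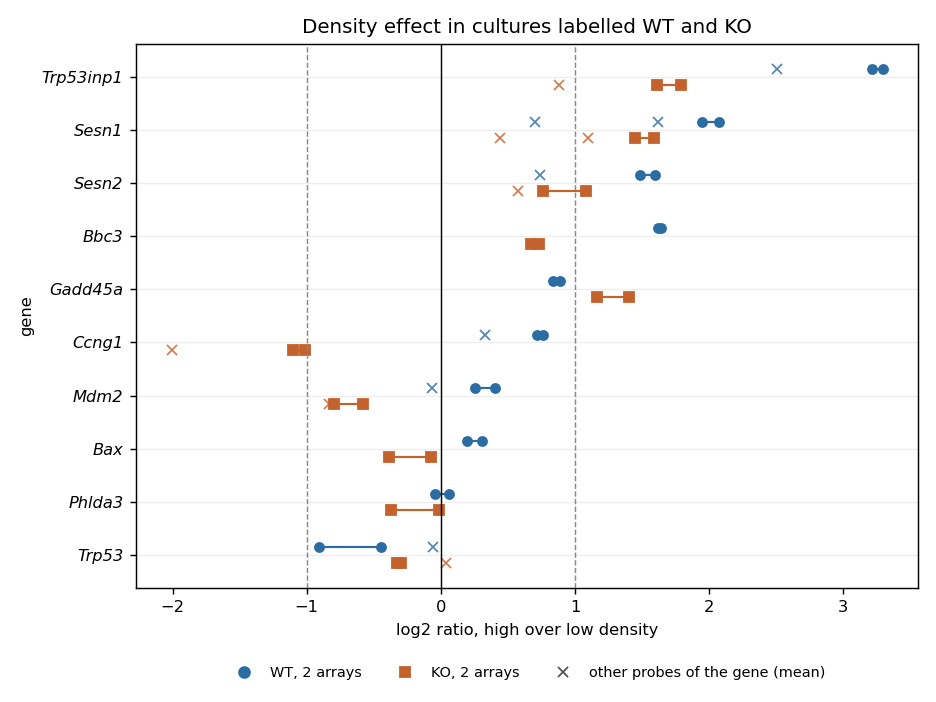
Log2 ratio of high over low density (x axis) for each gene (y axis), with the 2 arrays of each label joined by a line and the dimmer probes of the gene as crosses (mean of both arrays). Dashed lines mark a 2-fold change. The WT values lay above the KO values for Trp53inp1, Sesn1, Sesn2, Bbc3, Ccng1, Mdm2 and Bax, and Ccng1 passed the 2-fold line downward in KO.

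The probes spotted repeatedly on each array (Trp53, Mdm2 and Bax) showed how closely the measurement repeats. Within an array the SD over 9 to 10 spots ranged from 0.0177 to 0.0666 on the log2 scale. The dye-swap arrays were further apart than that for Trp53 in WT (-0.91 and -0.45), for Mdm2 in KO (-0.70 and -0.97) and for Bax in KO (-0.39 and -0.07). To a lesser extent this held for Mdm2 in WT (0.00 and -0.13) and Bax in WT (0.20 and 0.31), but not for Trp53 in KO (-0.30 and -0.33). Over all probes, the SD of an array around its pair mean was 0.0986 for the WT and 0.143 for the KO density effect. Among the density effects of these probes, that of Mdm2 in WT (-0.06) was within the spread between arrays. That of Bax in KO (-0.23) was close to it.

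**Figure D3:**
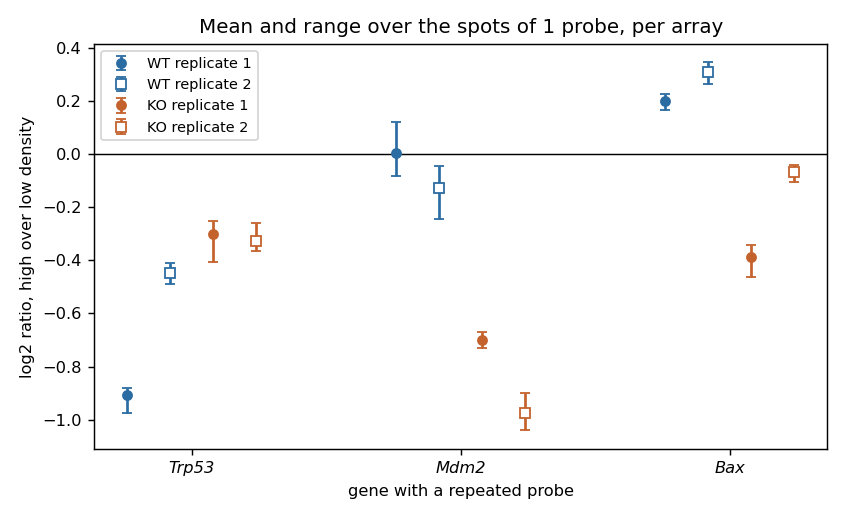
Mean log2 ratio of high over low density (y axis) for the probes of Trp53, Mdm2 and Bax that are spotted repeatedly (x axis), on each of the 4 arrays. Bars give the lowest and highest spot. For Trp53 in WT, Mdm2 in KO and Bax under both labels the bars of the dye-swap arrays do not overlap, whereas they overlap for Trp53 in KO and for Mdm2 in WT.

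A density effect common to both labels was tested with the dye-swap mean of each label as 1 value (limma, n = 2 pairs of cultures, two-sided). After Benjamini-Hochberg adjustment over 21545 probes no gene passed, which is 0% of 14167 genes, and none of the 10 genes did. At an unadjusted p under 0.05 there were 4446 genes (31.4%), and the smallest adjusted p of any probe was 0.0665. The limma adjusted p was 0.0692 for Sesn1 (mean effect 1.76, SE 0.20), 0.0775 for Trp53inp1 (2.48, SE 0.42) and 0.0803 for Gadd45a (1.07, SE 0.19). It was 0.0812 for Sesn2 (1.23, SE 0.22), 0.103 for Bbc3 (1.17, SE 0.28) and 0.174 for Trp53 (-0.50, SE 0.18). The first 5 of these were higher at high density on 4 of 4 arrays, and Trp53 was lower on 4 of 4. For Ccng1, Mdm2, Bax and Phlda3 the limma adjusted p lay between 0.718 and 0.976. The spread in this test includes the difference between labels.

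The density effect was next compared between labels within the same dye orientation. It was smaller or more negative under the KO label for 8 of the 10 genes, whereas 48.4% of all 14167 genes were below 0. The median log2 difference (KO effect minus WT effect) was -0.56, against 0.02 for all genes. By the 2-fold rule, 3 of 10 genes were below (Ccng1, Trp53inp1 and Mdm2) and none above, against 4.98% below and 4.55% above over all genes. The log2 difference was -1.86 and -1.73 for Ccng1 (3.47-fold), -1.69 and -1.42 for Trp53inp1 (2.93-fold) and -1.06 and -0.98 for Mdm2 (2.03-fold). Their second probes gave mean differences of -2.34, -1.62 and -0.77. Under 2-fold, Bbc3 gave -0.97 and -0.89, Sesn2 -0.72 and -0.51, Sesn1 -0.50 and -0.49, and Bax -0.59 and -0.38. Trp53 (0.61 and 0.12) and Gadd45a (0.52 and 0.33) were the genes above 0. None of these differences was tested, since each label has 1 pair of cultures.

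The KO and WT cultures were also compared directly at each density, within each dye, after the single channels had been scaled between arrays. At low density 1 of 10 genes was at least 2-fold higher in KO (Ccng1) and none lower, against 7.31% and 8.37% of 15252 genes. Ccng1 differed by 1.04 and 0.99 (its second probe by 1.26 and 1.30) and Mdm2 by 0.88 and 0.88 (its second probe by 0.96 in the mean). In the Cy5 dye alone Ccng1 stood just under 2-fold and the count was 0, and without scaling between arrays Mdm2 passed as well and the count was 2. Gadd45a (-0.55 and -0.44) and the brightest Trp53 probe (-0.72 and -0.60) read lower in KO, and Sesn1 gave -0.29 and -0.23. The other Trp53 probe gave 0.42 and 0.05. Sesn2, Bbc3, Trp53inp1, Phlda3 and Bax differed by at most 0.20 in either dye, although the dimmer Trp53inp1 probe gave 0.91 and 1.28. The median was 0.09, against 0.03 for all genes.

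At high density all 10 genes were lower in the culture labelled KO by the mean of their brightest probes, with a median log2 difference of -0.58, against 0.03 for all genes, of which 48.1% were below 0. Only Trp53inp1 passed the 2-fold rule (1 of 10 lower and none higher, against 7.79% and 6.74% of 15618 genes). Trp53inp1 differed by -1.59 and -1.27 (2.69-fold lower). Its dimmer probe gave -0.13 and -0.93, and with the mean of all probes it reached -0.98 and the count was 0. Ccng1 followed with -0.82 and -0.74 (second probe -0.97 and -1.14), Bbc3 with -0.80 and -0.77, Sesn1 with -0.80 and -0.72, Bax with -0.72 and -0.58 and Sesn2 with -0.61 and -0.42. For Mdm2, Gadd45a, Phlda3 and Trp53 the mean difference was -0.29 or closer to 0. The second probes of Mdm2 (0.22 and 0.15) and Trp53 (0.62 and 0.05) were above 0. Without scaling between arrays the median of all genes moved from 0.03 to 0.27, and Gadd45a (0.19), Mdm2 (0.12) and Phlda3 (0.11) then stood above 0 but below that median. Trp53 was at -0.02 without this scaling and at 0.02 with the mean of its probes.

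**Figure D4:**
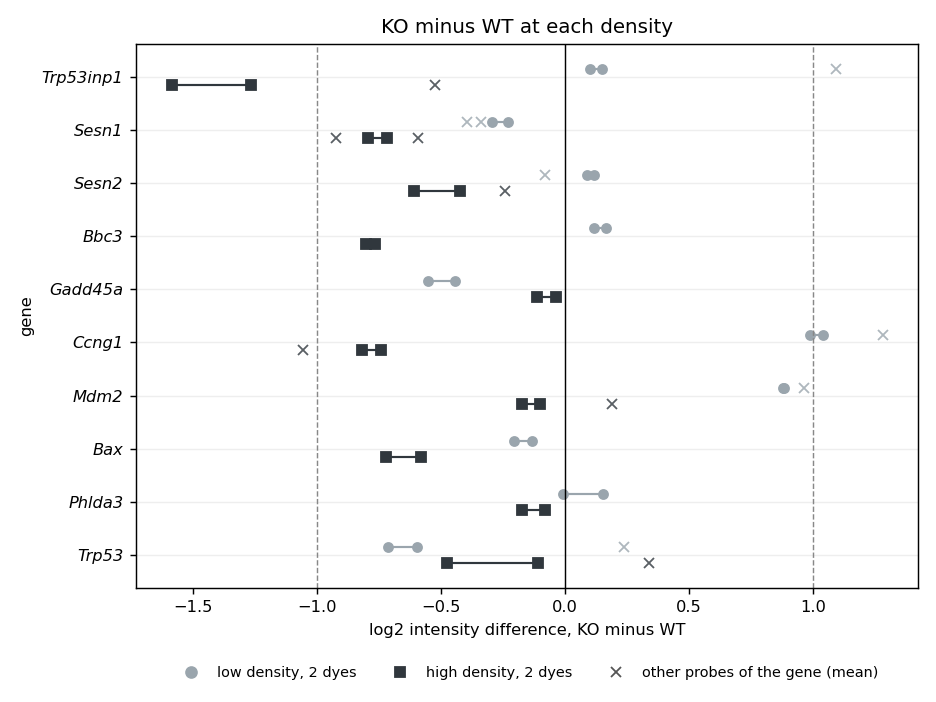
Log2 intensity difference, KO minus WT (x axis), for each gene (y axis) at low and at high density, with the 2 dyes joined by a line and the dimmer probes as crosses. Dashed lines mark a 2-fold change. At low density Ccng1 and Mdm2 stood near 1 in KO, whereas at high density every brightest probe had a mean below 0 and Trp53inp1 was past the 2-fold line.

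Further p53 targets were described from a list of 34 genes, of which 33 were measured. In WT 5 were at least 2-fold higher at high density and 3 lower (median 0.24), against 9.42% and 6.09% of all genes. In KO none was higher and 4 lower (median -0.17), against 7.16% and 3.87%. The difference between labels was 2-fold below for 7 of 33 and above for none (4.98% and 4.55% of all genes), with 25 of 33 below 0 and a median of -0.31. Cdkn1a, the p21 inhibitor of cyclin-dependent kinases, gave 0.32 in WT and -0.69 in KO, a difference of -1.01, and at low density it was 0.83 above WT. Other genes below in this difference included Cd82, a tetraspanin (2.02 in WT, 0.06 in KO, with KO minus WT at -2.99 at low and -4.95 at high density), and Fas, a death receptor (1.24 in WT, -0.04 in KO). Fas read higher in KO at both densities (2.46 at low, 1.18 at high), although its dimmer probe gave 0.64 and 0.16. Over the list, KO minus WT at low density was 2-fold above for 8 of 33 genes and below for 6 (median 0.17), against 7.31% and 8.37% of all genes. The list thus differed between labels already at low density. At high density 1 was above and 7 below (median -0.20), against 6.74% and 7.79%.

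In the difference between labels, 8 of the 33 target genes were above 0, among them Pmaip1, Ppm1d and Zmat3. Pmaip1, which encodes the BH3-only protein Noxa, read lower at high density in WT (-1.53) and gave -0.56 in KO, and it was lower in KO than in WT at both densities (-2.65 at low, -1.68 at high). Perp, a desmosomal protein with a role in apoptosis, hardly changed with density in WT (0.03) and gave -0.54 in KO. Its difference between labels was thus below 0 (-0.57). KO minus WT for Perp was -5.31 at low and -5.87 at high density. Ppm1d, a phosphatase that switches p53 off, was at -0.31 in WT and -0.10 in KO, and Zmat3, an RNA-binding protein, at 0.29 and 0.44.

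Of 29 regulators and cofactors of p53, 28 were measured. In WT 1 was 2-fold higher and 2 lower at high density, and in KO 1 was higher and 1 lower. These counts are near or below the shares of all genes given above (9.42% and 6.09% in WT, 7.16% and 3.87% in KO). Cdkn2a, the locus of p16 and of Arf, which sequesters Mdm2, was higher at high density in WT (1.64) and gave 0.51 in KO, with a genotype difference of -0.19 at low and -1.32 at high density. Mdm4, the partner of Mdm2, gave 0.29 in WT and 0.67 in KO. The damage kinases Atm (-0.58 in WT, -0.21 in KO), Chek1 (-1.29 in WT, -0.92 in KO) and Chek2 (-0.57 in WT, -0.33 in KO) were below 0, with Chek1 past 2-fold in WT. Prkdc, another damage kinase, gave 0.19 in WT and 0.37 in KO. Hipk2, a kinase that phosphorylates p53, was lower at high than at low density in KO (-1.49) and gave -0.29 in WT.

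Among other BCL2 family genes, 10 of 13 were measured. In WT 2 were 2-fold higher and 1 lower at high density, against 9.42% and 6.09% of all genes. In KO 2 were higher and 1 lower, against 7.16% and 3.87%. Bmf, a BH3-only gene, gave 3.73 in WT and 2.66 in KO, and Bcl2l11, also BH3-only, gave 2.11 and 1.77. Bbc3 was thus not the only BH3-only gene that stood higher at high density. Bcl2l11 read lower in KO than in WT at both densities (-1.66 at low, -2.01 at high). Bok, a Bax-like effector, moved the other way in WT (-2.82) and gave -0.77 in KO. Bid, which activates Bax, was lower at high than at low density in KO (-1.74) and stood at 0.01 in WT.

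Proliferation genes moved beside the p53 targets. Of 20 such genes (among them Mki67, Top2a, Ccnb2 and the Mcm genes), 18 fell by the 2-fold rule in WT at high density (median -1.60) and 3 in KO (median -0.42), against 6.09% and 3.87% of all genes. In the low density cultures 11 of 20 were 2-fold lower in KO than in WT (median -1.06, against 8.37% of all genes), and in the high density cultures the median difference was 0.21. The 2 labels thus differed in proliferation genes already at low density. The part of cell cycling in the values of the p53 targets was not tested.

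**Figure D5:**
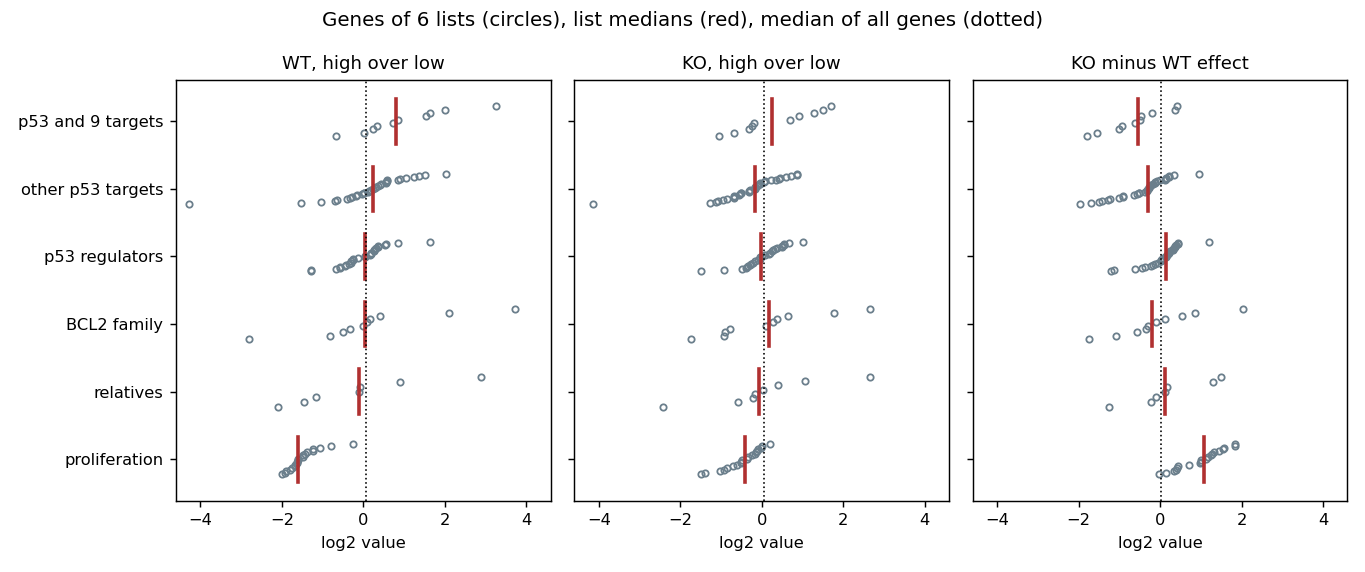
Log2 values (x axis) of the genes of 6 lists (y axis, 1 circle per gene) for the WT density effect, the KO density effect and their difference (KO minus WT). Red bars are list medians and the dotted line is the median of all genes. The 10 genes had medians of 0.80, 0.25 and -0.56 in the 3 panels, and the proliferation genes had medians of -1.60, -0.42 and 1.07.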

How the data were processed

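RNA of 4 MEF cultures was measured on 4 Agilent 2-colour arrays (2 per label, dyes exchanged). Groups and dyes were taken from the labels. The authors extracted the arrays with Agilent Feature Extraction 10.5.1.1. Per the file headers, the deposited files hold mean spot and local background intensity, processed signal intensity (background subtracted and dye normalized by the software), flags coded 0 or 1, and a log10 ratio of Cy5 to Cy3. The deposited series matrix was checked to hold the same log10 ratio, with the opposite sign on the swapped arrays, hence high over low throughout (each column's median was 0).

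Raw intensity was corrected by normexp (offset 50), normalized by loess within arrays and averaged over spots of a probe in limma 3.58.1 under R 4.3.3 (helped by the data.table package, version 1.17.8, and statmod 1.5.0). Each log2 ratio was expressed as high over low density. For KO against WT, single channels were scaled between arrays by Aquantile and compared within a dye. The offset shrinks the ratio of a dim probe. Controls and outlier spots were removed. A gene entered a density contrast when its brightest probe passed the background test on both arrays for at least 1 density, and a genotype contrast when it did so in both dyes for at least 1 label. A gene was called when its mean was at least 2-fold (log2 of 1) with the same sign in both arrays or dyes. The common density effect used limma on 2 values per probe (1 residual degree of freedom, Benjamini-Hochberg, threshold 0.05). The procedure was tested on simulated data. Tables and figures used Python 3.11.15, pandas 2.3.3, numpy 2.4.6 and matplotlib 3.10.9.

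Positions of probes follow the annotation in the scanner files (mm8) and were not assigned to exons. All 10 symbols were found in RefSeq (GRCm38.p6), which was used for names and promoter sequence only. The genes and lists were chosen with earlier results of these data known, and the lists were written from general knowledge. Every probe of the 10 genes and of Lats2 was to be described, and from each list the genes with the highest and lowest value per contrast, with Cdkn2a, Mdm4, Atm, Chek1, Chek2, Cdkn1a, Pmaip1, Ppm1d, Perp and Zmat3 whatever their values. Not every gene this takes is reported here. Ccng2, Gadd45b, Prkdc, Btg2, Eda2r and Ak1 were added after their values were seen. Alternatives covered background correction, normalization, scaling, filters, thresholds, the probe that represents a gene and leaving out arrays. The number of arrays limits the precision.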

Additional observations from a re-analysis of the deposited data

Results flagged for a closer look

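Some probes read higher at high density on both arrays labelled WT and lower on both arrays labelled KO, and these are listed because every array of one label moved one way and every array of the other the opposite way. The difference between the labels was not tested, since each has 1 pair of cultures. Both Ccng1 probes were among them, with log2 differences (KO minus WT density effect) of -1.80 for the brightest probe and -2.34 for the other. The brightest Mdm2 probe gave -1.02, whereas the repeated Mdm2 probe did not have a uniform sign in WT. Bax gave -0.48, from 0.20 and 0.31 in WT and from -0.39 and -0.07 in KO. Outside the 10 genes, only the genes to be described whatever their values were searched, and the share of all genes that meet this rule is not given. Whether such reversals are more common here than over the array therefore cannot be told. Among the genes searched, Cdkn1a gave -1.01, from 0.35 and 0.28 in WT and from -0.76 and -0.62 in KO. Further p53 targets that were not searched moved in the same opposite ways, among them Btg2 (-1.70), Eda2r (-1.50) and Ak1 (-1.42), which are named here for their values. Dimmer probes of Mdm4 gave -0.28 and -0.18, while the brightest Mdm4 probe was above 0 under both labels.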

How the results depend on the processing

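No value of the 10 genes that had been called changed sign under any alternative. With a 1.4-fold threshold the count of genes called went from 4 to 7 for the WT density effect, from 4 to 7 for the KO density effect, from 3 to 6 for their difference, from 1 to 4 at low density and from 1 to 6 at high density, while 41.1%, 36.7%, 31.4%, 42.6% and 39.4% of all genes then passed. Leaving out an array gave counts of 4 to 4 for WT, 4 to 5 for KO, 2 to 3 for the difference, 0 to 1 at low density and 1 to 1 at high density. At low density the count was 2 without scaling between arrays and 0 in Cy5 alone, and at high density it was 0 with the mean of all probes. For the common density effect the limma count over all genes was 0 and became 175 with a filter in every channel, 3 with median centring, 267 with an offset of 10, 219 with processed signals and 243 with the series matrix, and leaving out an array gave 0 to 131 (131 without KO replicate 1, 77 without WT replicate 1). The cause was not tested. None of the 10 genes passed in any of them, their lowest adjusted p being 0.0520 (Sesn1). A plain t-test on the same 2 values per probe, without the 2-fold filter of the methods, called 1550 genes at an unadjusted p under 0.05. It called 0 after Benjamini-Hochberg adjustment. Each array ratio already pairs both densities of 1 label, and the labels were compared within the same dye orientation. The replicate numbers mark the dye orientation of 1 pair of cultures per label and give no further pairing. Median centring moved the median of all genes by -0.11 in WT and -0.14 in KO, and in WT it moved Phlda3 from 0.01 to -0.27 and Bax from 0.25 to 0.01. In KO it moved Phlda3 from -0.19 to -0.83, Bax from -0.23 to -0.56 and Mdm2 from -0.69 to -1.03, past the rule. The main limits are 1 pair of cultures per label, slide and scan that go with genotype, and a Lats2 signal that goes against the label at 3 of 4 probes.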
